A study of Mus musculus with 13 samples.

Results

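The N-methyl-D-aspartate (NMDA) receptor subunit family was followed through the CA1 region of mouse entorhino-hippocampal tissue cultures that had lost one of their main excitatory inputs. Its 7 members, Grin1, Grin2a, Grin2b, Grin2c, Grin2d, Grin3a and Grin3b, were taken by gene symbol from a table of 55291 symbols, and each symbol was found once. Every library came from the CA1 region of a single culture of wildtype C57BL/6 mice of either sex, prepared at postnatal day 4 to 5 and kept in vitro for 18 days or longer. The groups were 5 non-lesioned controls, 4 cultures with a Schaffer collateral lesion (SCL), which cuts the axons from CA3 to CA1, and 4 cultures with an entorhinal cortex lesion (ECL), which cuts the perforant path. Lesioned tissue was isolated with a scalpel 3 days after the lesion, without the scar. The cultures were bulk tissue kept without the rest of the brain, so each value sums over all the cell types of the region. The labels do not say which cultures came from 1 animal, so p-values describe the spread between cultures.

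NMDA receptors are tetrameric cation channels that open when glutamate and glycine or D-serine are bound together and when depolarisation relieves their magnesium block, and they pass calcium into the postsynaptic spine. Every receptor holds GluN1, the glycine-binding subunit encoded by Grin1, together with the glutamate-binding GluN2 subunits encoded by Grin2a to Grin2d or the glycine-binding GluN3 subunits encoded by Grin3a and Grin3b. GluN2B is known as the main partner in young hippocampal neurons and GluN2A as the one that gains ground with maturation, while GluN3A is known from immature synapses and gives receptors with little calcium entry and weak magnesium block.

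The 7 genes descend from a common ancestor, and the end of the third membrane segment, which lines the gate of the channel, is known to be highly conserved. The same 27 bases of coding sequence are shown for 5 members to make visible how alike the counted transcripts are at this site. The stretch was found by its known protein motif, and other sites were not compared. They run 5′ to 3′ on the coding strand, and capitals mark bases that differ from Grin1. The sequences and positions are from GENCODE M21 on the GRCm38 build.
Grin1, chr2:25297199-25297225, minus strand: tcctacactgccaacctggcagccttc
Grin2a, chr16:9653447-9653473, minus strand: AGTtacacAgccaacctggcTgccttc
Grin2c, chr11:115253749-115253775, minus strand: AGctacacGgccaaTctggcagccttc
Grin3a, chr4:49770470-49770496, minus strand: AcAtacacAgcGaacTtggcTgcTGtc
Grin3b, chr10:79974636-79974662, plus strand: AGTtacacAgccaacctggcagcTGtc
Between 4 and 8 of the 27 bases of these genes differed from Grin1, fewest in Grin2c and most in Grin3a. Among the others shown, 3 bases separated Grin2a from Grin3b and 9 bases separated Grin2c from Grin3a.

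Over stretches of 100 bases the subunit transcripts could be told apart from each other. Of all stretches of 100 bases in their annotated transcripts, 100% in Grin2c and Grin3a, 99.8% in Grin2b, 96.6% in Grin1, 94.7% in Grin2d, 89.3% in Grin2a and 85.1% in Grin3b occurred in no other gene. The stretches that were shared were not shared with another subunit. Those of Grin2a lay in Gm7328, whose counts were between 0 and 4. Exons of Grin1 overlapped Grin1os, an antisense gene, over 13.5% of their bases, and the reads had been counted without strand. Grin1os held 0 to 3 counts. How reads that fit 2 genes were treated is not known here. Low counts of Grin1os and Gm7328 therefore do not show whether Grin1 and Grin2a lost reads at shared bases. For Grin3b, 32.1% of the exon bases lay within Tmem259, so its few counts are uncertain. Grin1 lies on chromosome 2 (25291181 to 25319187), Grin2a on chromosome 16 (9567898 to 9995560), Grin2b on chromosome 6 (135713233 to 136173511), Grin2c on chromosome 11 (115249169 to 115267243), Grin2d on chromosome 7 (45831883 to 45878378), Grin3a on chromosome 4 (49661611 to 49845744) and Grin3b on chromosome 10 (79970715 to 79977190).

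Total counts ran from 14371152 to 21092612 in the controls, up to 56786613 (lowest 16405517) in the SCL group and up to 46449937 (lowest 20210165) in the ECL group, so the control libraries were mostly shallower. Markers of neurons, glutamatergic cells and CA1 pyramidal cells were present in every library, with Fibcd1, a CA1 gene, at 1304 to 2662 normalized counts. The titles name CA1 as the tissue, and the protocol text of the labels names the dentate gyrus. Of the 6 dentate granule cell markers, Dsp, C1ql2 and Lct stayed between 0 and 43.5 normalized counts, while Tdo2 lay at 24.9 to 108, Prox1 at 273 to 515 and Calb1 at 1214 to 4104, and the list summed to 1669 to 4533. The CA3 marker list summed to 9139 to 13417 and the CA1 list to 7161 to 12674 normalized counts, so these lists do not separate CA1 from CA3 tissue. The column headings end in m or f, read here as male and female and not checked against sex-linked genes. By this reading the controls were 2 male and 3 female cultures, and the SCL group 1 male and 3 female. The ECL group was 3 male and 1 female, so sex was not balanced between the groups.

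Levels between genes were compared per kilobase of exon, on normalized counts, which are counts scaled between libraries with TMM factors. Over the 13 libraries Grin2a had the highest mean level, at 412 normalized counts per kilobase, and Grin2b followed at 214. Grin3a stood at 71.4, Grin1 at 36.1, Grin2c at 34.2, Grin2d at 6.45 and Grin3b at 0.522. Grin2a exceeded Grin2b, Grin2b exceeded Grin3a, Grin2c exceeded Grin2d and Grin2d exceeded Grin3b in 13 of 13 libraries. Grin3a exceeded Grin1 in 11 of 13. Grin1 and Grin2c did not differ beyond their spread, since Grin1 was higher in 7 of 13 libraries, but per kilobase of the longest transcript in place of all exons Grin1 stood at 81.9 and Grin2c at 35.2, with Grin1 higher in 12 of 13. The obligatory subunit gene thus ranked under 3 partner genes on either length, with raw counts of 106 to 691, against 3977 to 14812 for Grin2a. These levels were not corrected for GC content. It was 44.8% in Grin2a, 45.7% in Grin2b and 49.2% in Grin3a, and 59.4% (Grin1) to 65.0% (Grin2d) in the other members. The order thus largely followed GC content, whose part in it was not tested.

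**Figure D1:**
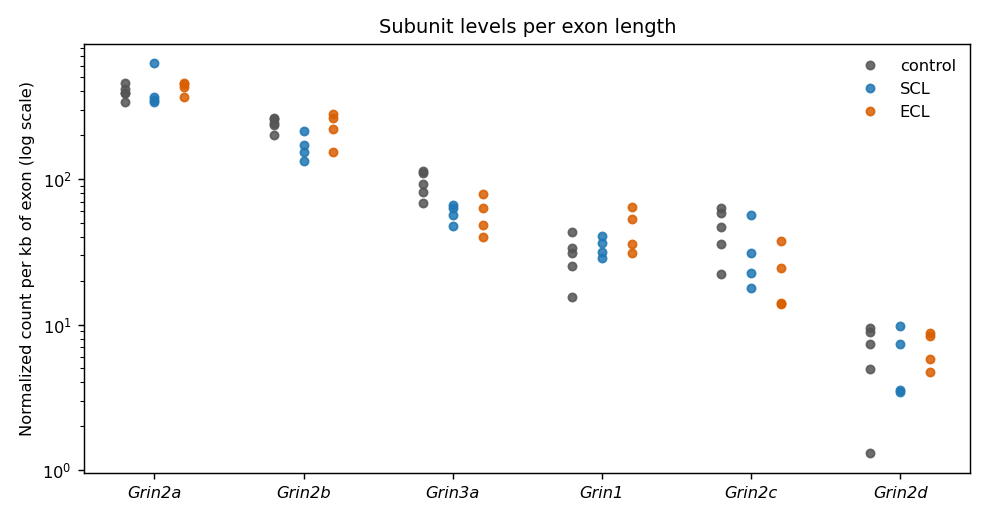
Normalized counts per kilobase of exon (log scale) of 6 NMDA receptor subunit genes, 1 point for each control, SCL and ECL library. Grin2a and Grin2b lie above the others in every library, and the points of Grin1 and Grin2c overlap. Grin3b is left out because its counts were between 0 and 4.

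The 7 genes together summed to 14784 ± 611 (SD, n = 5) normalized counts in the controls, to 12919 ± 2631 (n = 4) in the SCL libraries and to 14627 ± 1260 (n = 4) in the ECL libraries, and the ranges of the 3 groups overlapped. Grin2a made up 48.1% ± 4.18 of this sum in the controls, 57.4% ± 7.71 after SCL and 52.4% ± 6.99 after ECL. Grin2b made up 40.5% ± 4.95, 32.7% ± 6.86 and 38.6% ± 7.23, and Grin3a 7.69% ± 1.38, 5.61% ± 0.725 and 4.91% ± 1.66. These shares are not corrected for length, so longer transcripts weigh more in them.

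After SCL, Grin3a and Grin2b were lower than in the controls, and Grin1, Grin2a, Grin2c and Grin2d did not pass the test. These are 2 of the 5 subunits with a mean of at least 150 normalized counts, read against a background in which 11.6% of the 11733 genes tested were called lower and 24.6% were called in either direction. Grin3a stood at 995, 844, 1139, 1387 and 1339 normalized counts in the controls and at 811, 776, 694 and 582 after SCL. Each of the 4 SCL libraries lay under the lowest control, which held for Grin3a alone among the 5 subunits and for 11.4% of all genes tested. The fitted log2 fold change was −0.67 (SE 0.18, 95% confidence interval −1.05 to −0.29, adjusted p = 0.0166, edgeR quasi-likelihood test with Benjamini-Hochberg adjustment over 11733 genes). In bulk tissue, fewer cells that express the gene and less of its RNA per cell cannot be told apart.

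Grin2b, the GluN2 gene of young synapses, stood at 5832, 6429, 6566, 4983 and 6040.3 normalized counts in the controls and at 4248, 3793, 5267 and 3314 after SCL. Of the SCL libraries, 3 lay under every control, and replicate 3 lay above the lowest control, so the groups overlapped. Its log2 fold change was −0.52 (SE 0.15, 95% confidence interval −0.85 to −0.19, adjusted p = 0.0264 in the same edgeR test). This call did not hold without control replicate 3 (−0.48, adjusted p = 0.0521), without SCL replicate 2 (−0.48, adjusted p = 0.0795) or without SCL replicate 4 (−0.43, adjusted p = 0.0698) in the same edgeR test, nor in the fit over genes with a mean of at least 10 (−0.43, adjusted p = 0.0800). When an offset corrected for transcript length and GC content, the Grin2b value shrank to −0.10 (adjusted p = 0.717) and that of Grin3a to −0.45 (adjusted p = 0.0706) in edgeR. In the main fit without the offset, the median log2 fold change over the 5 subunits was −0.50, against 0.01 over all genes tested. This median is the value of Grin2c, which was not called, and Grin1 (0.20) and Grin2a (0.08) went the other way.

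Grin1 and Grin2a after SCL overlapped with the controls. Grin1 stood at 327, 302, 417, 149.5 and 245 normalized counts in the controls and at 349.9, 307, 395 and 277 after SCL, with all 4 SCL libraries inside the range of the controls. The log2 fold change was 0.20 (95% confidence interval −0.39 to 0.79, adjusted p = 0.620, edgeR). Grin2a, the most abundant subunit gene, stood at 7465, 6039, 6939.8, 8136 and 6979 in the controls and at 11146, 6574, 6045 and 6288 after SCL. A single SCL library, replicate 1, lay above all controls and the other 3 lay at or near the lower end of the controls. The Grin2a log2 fold change was 0.08 (95% confidence interval −0.32 to 0.48, adjusted p = 0.774, edgeR) and −0.17 (adjusted p = 0.368, edgeR) without that library.

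Grin2c, which is best known from cerebellar granule cells, stood at 181, 111, 293, 320.2 and 236 normalized counts in the controls and at 113, 286, 89.5 and 156 after SCL. The SCL values reached from under the lowest control to near the highest, and the log2 fold change of −0.50 had a 95% confidence interval of −1.31 to 0.32 (adjusted p = 0.356, edgeR). Grin2d, known in the hippocampus from interneurons, fell under the minimum of 150 and was tested in a fit over the 22150 genes with a mean of at least 10, of which 16.3% were called. It held 5 to 42 counts in the control libraries and 24 to 95 after SCL, and its log2 fold change was 0.01 (95% confidence interval −1.16 to 1.18, adjusted p = 0.994, edgeR), an interval that covers 2-fold changes in either direction. Grin3b was near or under the detection floor: it held 0, 2, 2, 2 and 2 counts in the controls, 0, 0, 0 and 2 after SCL, and 4, 4, 0 and 0 after ECL. A count of 0 allows up to 3 counts in a library, so no fold change is given for Grin3b.

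**Figure D2:**
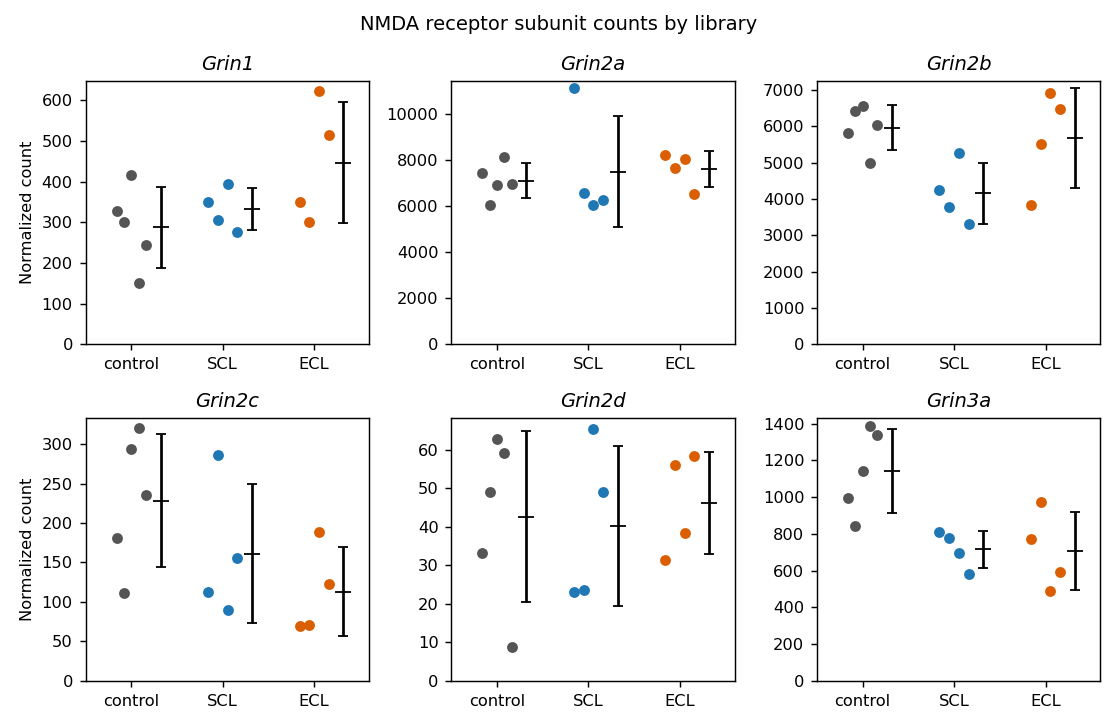
Normalized counts of 6 NMDA receptor subunit genes, 1 panel per gene, in 5 control, 4 SCL and 4 ECL libraries. Points are libraries and the bars beside them are means ± SD. The 4 SCL libraries lie under every control for Grin3a, and 1 SCL library stands above the rest for Grin2a.

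After ECL, Grin3a was again the subunit that passed the test, and it was lower than in the controls. It was 1 of the 4 subunits with a mean of at least 150 in this comparison, where 12.4% of the 11392 genes tested were called lower and 27.6% in either direction, so the share of subunits called is close to the background. The median log2 fold change over the 4 subunits was 0.02, against −0.01 over all genes tested. These libraries were set against the same 5 controls as the SCL libraries, so the values after both lesions are not independent of each other. Grin3a stood at 773, 976, 488 and 591 normalized counts after ECL. Of these, 3 lay under every control and replicate 2 lay inside the range of the controls. The log2 fold change was −0.68 (SE 0.22, 95% confidence interval −1.14 to −0.22, adjusted p = 0.0308, edgeR over 11392 genes). The adjusted p rose above 0.05 in edgeR without control replicate 4 (−0.61, adjusted p = 0.0529), control replicate 5 (−0.62, adjusted p = 0.0706), ECL replicate 1 (−0.72, adjusted p = 0.0506), ECL replicate 3 (−0.54, adjusted p = 0.0781) or ECL replicate 4 (−0.60, adjusted p = 0.0982), and also with a sex term (−0.54, adjusted p = 0.0966).

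Grin1 stood at 349, 300.2, 624 and 514 normalized counts after ECL, with replicates 3 and 4 above every control and the other two inside the range of the controls. Its log2 fold change was 0.64 with a 95% confidence interval of 0.01 to 1.27 before adjustment, and it missed the threshold (SE 0.30, adjusted p = 0.121, edgeR). Grin2a stood at 8242, 7664, 8054 and 6529, where only replicate 1 left the range of the controls, and its log2 fold change was 0.11 (95% confidence interval −0.18 to 0.39, adjusted p = 0.583, edgeR). With the offset for length and GC content, both Grin1 (0.70, adjusted p = 0.0196) and Grin2a (0.40, adjusted p = 0.0193) were called higher in edgeR and Grin3a (−0.46, adjusted p = 0.119) was not called.

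Grin2b stood at 3829, 5519.6, 6931 and 6482 normalized counts after ECL. Replicate 1 lay under every control, replicate 3 lay above every control, and the log2 fold change was −0.06 (95% confidence interval −0.43 to 0.30, adjusted p = 0.819, edgeR). Grin2c stood at 69.9, 70.6, 189 and 122, with replicates 1 and 2 under every control, and had a mean of 146 in the fit, just under the minimum. In the fit over the 21283 genes with a mean of at least 10, of which 22.7% were called, its log2 fold change was −0.93 (SE 0.36, 95% confidence interval −1.70 to −0.16, adjusted p = 0.0792, edgeR). DESeq2 called Grin2c lower in that fit (−0.96, adjusted p = 0.0339), and edgeR did so without control replicate 2 (−1.09, adjusted p = 0.0330) or ECL replicate 3 (−1.27, adjusted p = 0.0254). Grin2d held 31 to 54 counts after ECL and had a log2 fold change of 0.20 (95% confidence interval −0.86 to 1.26, adjusted p = 0.814, edgeR).

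**Figure D3:**
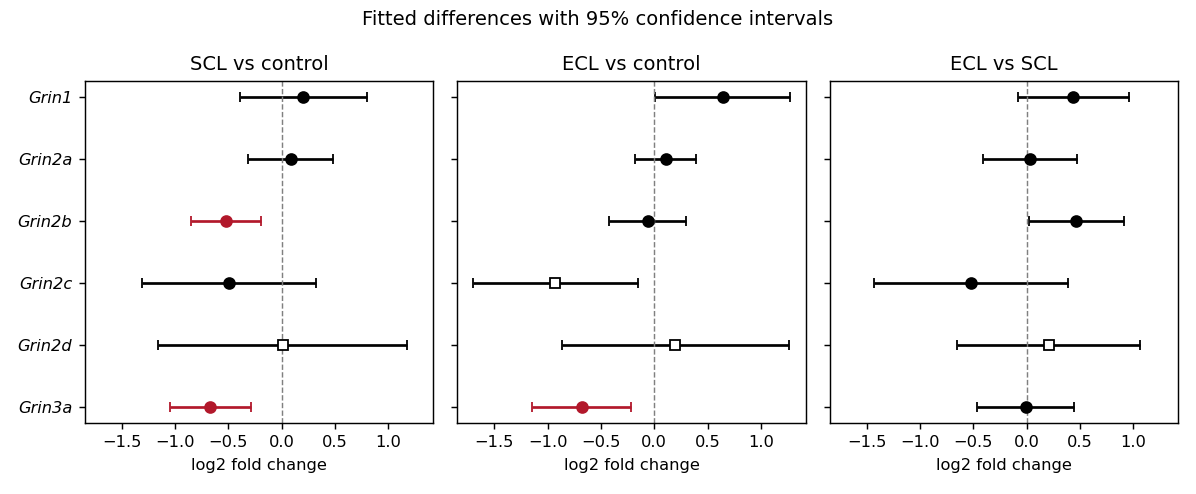
Log2 fold changes of 6 subunit genes with 95% confidence intervals for SCL against control, ECL against control and ECL against SCL. Circles come from the fits with a mean minimum of 150, open squares from the fits with a minimum of 10, and red marks adjusted p-values under 0.05. Grin3a is red after both lesions and Grin2b after SCL, and no gene is red between the lesions.

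The 2 lesions were compared with each other to ask whether a subunit depends on which input was cut. None of the 5 subunits tested passed, and edgeR called 0 of 12478 genes between ECL and SCL, with 918 genes (7.36%) at an unadjusted p under 0.05, while DESeq2 called 64. Grin2b was higher after ECL than after SCL by a log2 fold change of 0.46 (95% confidence interval 0.02 to 0.91, unadjusted p = 0.0424, adjusted p = 0.667, edgeR), and its ECL and SCL libraries overlapped. Grin2b was thus called after SCL and not after ECL, but the difference between the lesions was not itself past the threshold. For Grin3a the difference was −0.01 (95% confidence interval −0.47 to 0.45), for Grin2a 0.03 (−0.41 to 0.47), for Grin1 0.44 (−0.09 to 0.96) and for Grin2c −0.52 (−1.43 to 0.39). Grin2d differed by 0.21 (−0.65 to 1.06) in the fit with a minimum of 10. These intervals do not show that the lesions acted alike.

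Markers of some cell types moved with the lesions as well. Of all genes tested, edgeR called 24.6% after SCL, with 1529 of 11733 higher and 11.6% lower. After ECL it called 27.6%, with 1722 of 11392 higher and 12.4% lower. Marker counts near these shares are not results about a cell type. The mean log2 level of 8 pan-neuronal markers lay between 12.81 and 12.96 in the controls, at 12.53 to 12.67 in the SCL libraries and at 12.49 to 12.64 in the ECL libraries, and edgeR called 2 of the 8 lower after SCL and 4 lower after ECL. The 9 microglial markers summed to 11067 to 12854 normalized counts in the controls, 21996 to 42354 after SCL and 24539.7 to 31512 after ECL, and all 9 were called higher after SCL and 5 after ECL. Of the 8 astrocyte markers 4 were called higher after SCL and 3 after ECL, of the 6 oligodendrocyte markers 2 and 2, while of the 5 glutamatergic markers 0 were called after either lesion and of the 6 CA1 markers 1 was lower after SCL and 0 after ECL. Of the 9 GABAergic interneuron markers 1 was higher and 2 were lower after each lesion, and of the 3 vascular markers tested 1 was lower after each. Of the CA3 markers 0 of 6 were called after SCL and 1 of 5 was higher after ECL, and none of the oligodendrocyte precursor markers or the 2 dentate markers tested was called in edgeR. Their part in the subunit results was not tested. Set against the mean of the pan-neuronal markers in the same library, Grin3a stood at −2.77 ± 0.30 (SD, n = 5) on the log2 scale in the controls, −3.13 ± 0.20 (n = 4) in the SCL libraries and −3.15 ± 0.47 (n = 4) in the ECL libraries, and Grin2b at −0.36 ± 0.15, −0.61 ± 0.33 and −0.13 ± 0.41. On this scale the groups overlapped for both genes. Grin1 stood at −4.80 ± 0.55, −4.24 ± 0.27 and −3.82 ± 0.47, and Grin2a at −0.11 ± 0.19, 0.22 ± 0.40 and 0.32 ± 0.10. For Grin2a the ECL libraries, at 0.19 to 0.39, lay above every control, at −0.36 to 0.09. The marker mean was lower in every lesion library than in every control, which raises any gene on this scale. Without it, Grin2a after ECL was at a log2 fold change of 0.11 (adjusted p = 0.583, edgeR). The share of all genes that separate on this scale was not computed.

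The balance between subunits was followed as the ratio of 2 counts within a library, which does not depend on scaling between libraries. The offset for length and GC content was not applied to these ratios. GC content was 59.4% in Grin1, against 44.8% in Grin2a, 45.7% in Grin2b and 49.2% in Grin3a. The log2 ratio of Grin2a to Grin2b, the pair known for its switch during maturation, was 0.36, −0.09, 0.08, 0.71 and 0.21 in the controls, 1.39, 0.79, 0.20 and 0.92 after SCL and 1.11, 0.47, 0.22 and 0.01 after ECL. The groups overlapped, although 3 of 4 SCL libraries lay above every control. The difference from the controls was 0.57 after SCL (exact permutation test, two-sided, p = 0.0794, adjusted over 12 ratio tests 0.190) and 0.20 after ECL (exact permutation p = 0.460, adjusted 0.552).

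Ratios to Grin1 ask how the partner subunits stood against the obligatory subunit. The log2 ratio of Grin3a to Grin1 was 1.60, 1.48, 1.45, 3.21 and 2.45 in the controls, 1.21, 1.34, 0.81 and 1.07 after SCL and 1.15, 1.70, −0.35 and 0.20 after ECL. All SCL libraries and 3 of 4 ECL libraries lay under the lowest control. The difference was −0.93 after SCL (exact permutation p = 0.0159, adjusted 0.0952) and −1.37 after ECL (exact permutation p = 0.0635, adjusted 0.190).

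The log2 ratio of Grin2b to Grin1 was 4.15, 4.41, 3.97, 5.05 and 4.62 in the controls, and after SCL it took a narrow range of 3.60, 3.63, 3.74 and 3.58, under every control. After ECL it was 3.45, 4.20, 3.47 and 3.65, with 3 of 4 libraries under the lowest control. The differences were −0.81 after SCL (exact permutation p = 0.0159, adjusted 0.0952) and −0.75 after ECL (exact permutation p = 0.0476, adjusted 0.190). The ratio of Grin2a to Grin1 differed by −0.23 after SCL and −0.55 after ECL (exact permutation p = 0.635 and 0.222). None of the 12 ratio tests passed after adjustment. The smallest p that this two-sided test allows is 0.0159 for 5 against 4 libraries and 0.0286 for 4 against 4. The Grin2b to Grin1 and Grin3a to Grin1 ratios after SCL, under every control, stood at that smallest p. Control replicate 4, with the fewest Grin1 counts (106), had the highest ratio to Grin1 in all 3 cases.

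**Figure D4:**
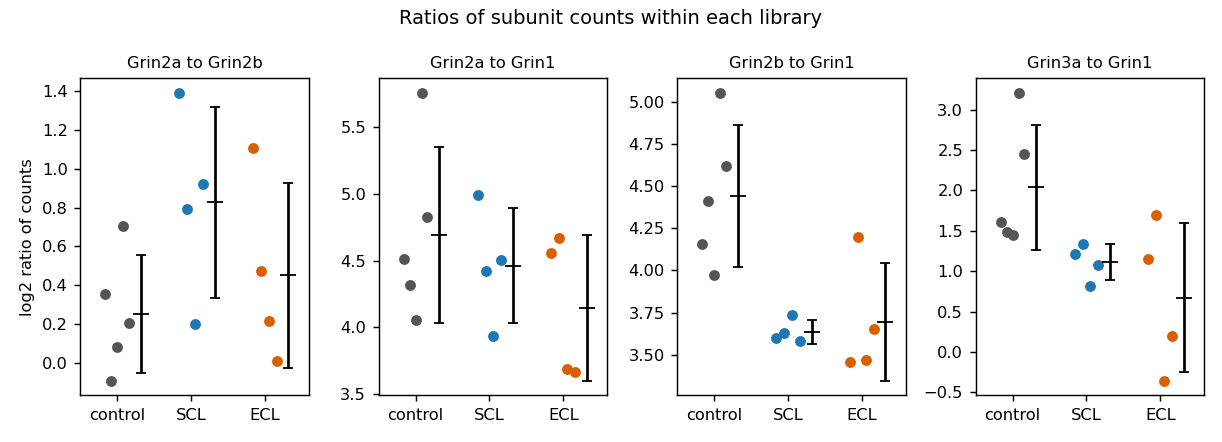
Log2 ratios of subunit counts within each of 5 control, 4 SCL and 4 ECL libraries, with means ± SD beside the points. The Grin2b to Grin1 and Grin3a to Grin1 ratios of the SCL libraries lie under every control, and the other panels overlap.

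Across the 13 libraries, members varied largely apart from each other. Pearson's r of log2 normalized counts was −0.71 between Grin1 and Grin3a and lay between −0.29 and 0.38 for the 9 other pairs of the 5 genes with a mean of at least 150. These values are descriptions over libraries that share group and depth. By the same measure, over 11871 genes, the patterns most like Grin3a were those of Cxxc4 (0.957), Gm26871 (0.950) and Syncrip (0.949), and those most like Grin2b were Smarcc1 (0.929), Csnk2a1 (0.902), which encodes a catalytic subunit of casein kinase 2, and Pdxk (0.897). Grin1 was most like Sars (0.948), Bcr (0.930) and Emc10 (0.922), and Grin2c most like Etv5 (0.902), Mafk (0.886) and Ago1 (0.882). Grin2a had the weakest likeness, to Rab8a (0.843), Zbtb38 (0.842) and Inafm2 (0.837).

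The closest relatives were examined beside the members. Counts of list genes come from the main edgeR fits alone and were not repeated under the other processing choices given below. For the counts of list genes that follow, the background after SCL was 1529 of 11733 genes called higher and 1362 (11.6%) called lower, together 24.6%, and after ECL 1722 of 11392 called higher and 1417 (12.4%) called lower, together 27.6%. Of the 4 AMPA receptor subunit genes, which encode the channels that carry most fast glutamatergic current, 3 were called lower after SCL, beside 11.6% of all genes: Gria1 by a log2 fold change of −0.47, Gria2 by −0.45 and Gria3 by −0.40 (adjusted p = 0.0265, 0.0317 and 0.0481, edgeR). Gria4 was at −0.48 (adjusted p = 0.102, edgeR). After ECL none of the 4 was called in edgeR, with values of −0.22 for Gria1, −0.30 for Gria2, −0.42 for Gria3 and −0.39 for Gria4 and adjusted p-values of 0.0524 to 0.249. Their sizes after SCL were close to that of Grin2b, and the median over the AMPA genes was −0.46 after SCL and −0.34 after ECL. Of the 7 kainate and delta receptor genes, 7 were tested after SCL and 6 after ECL, and 1 was called lower after each lesion, Grik1, at −0.60 and −0.64, close to the background of 11.6% and 12.4%.

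The proteins that hold, move and modify NMDA receptors were given by lists. Of 17 scaffold genes, 14 were tested in each comparison with the controls. After SCL 7 of them were lower and 1 was higher, and ECL libraries showed 6 lower and 2 higher. Shank1, a master scaffold of the postsynaptic density, was at −1.14 after SCL and −1.61 after ECL. Dlgap1, which links PSD-95 to the Shank proteins, was at −0.70 after SCL and −0.49 after ECL. Gipc1, an adaptor with a PDZ domain, was at 0.71 after SCL and 0.85 after ECL. The median over the scaffold genes was −0.48 after SCL and −0.35 after ECL. These shares of scaffold genes stand beside 11.6% and 12.4% of all genes called lower, and the difference was not tested.

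Of 13 transport and auxiliary genes, 11 were tested. After SCL 1 was higher and 1 lower, and for ECL the numbers were 2 and 1, no more than the 24.6% and 27.6% of all genes called. Sorcs2, a sorting receptor, was at 1.12 after SCL and 1.17 after ECL, and Exoc4, a subunit of the exocyst, was at −0.43 and −0.50. All 15 kinase and phosphatase genes were tested. After SCL 3 were higher and 2 lower, and for ECL the numbers were 4 and 1, beside 24.6% and 27.6% of all genes called. Ppp1ca, a catalytic subunit of protein phosphatase 1, was at 1.97 after SCL and 2.12 after ECL. Cdk5r1, the activator p35 of the kinase Cdk5, was at −1.07 after SCL and −1.08 after ECL. Cdk5 itself was at 1.10 after SCL and 1.47 after ECL.

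All 19 calcium-dependent effector genes were tested, with 0 higher and 4 lower after each lesion, beside 11.6% and 12.4% of all genes called lower and 24.6% and 27.6% called in either direction. Ppp3ca, a catalytic subunit of calcineurin, was at −0.83 after SCL and −0.66 after ECL. Of 17 genes that make, break down or carry the co-agonists glycine and D-serine, 11 were tested. After SCL 6 were higher, beside 1529 of all 11733 genes, and 1 was lower. For ECL both numbers were 1, so that fewer were called than the 27.6% of all genes. Amt, of the glycine cleavage system, was at −1.72 after SCL and −2.43 after ECL. Of the serine synthesis genes, Psat1 was higher at 0.69 after SCL, and Psph was higher at 0.51 after SCL and 0.52 after ECL. None of the 10 genes of the kynurenine pathway, which makes endogenous NMDA receptor ligands, reached a mean of 150 in a comparison with the controls. No gene of these lists was called between ECL and SCL in edgeR.

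The calls on subunits were set against other processing choices. Grin3a kept a negative fold change in all 20 alternatives after SCL, from −0.76 to −0.45, and in all 20 after ECL, from −0.87 to −0.46, and edgeR or DESeq2 called it in 16 and 9 of them. Grin2b after SCL kept a negative value in all 20, from −0.65 to −0.10, and was called in 13. With TMM factors over all 55291 symbols the median of all genes tested moved to 0.21 after SCL and 0.18 after ECL, and no subunit was called.

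**Figure D5:**
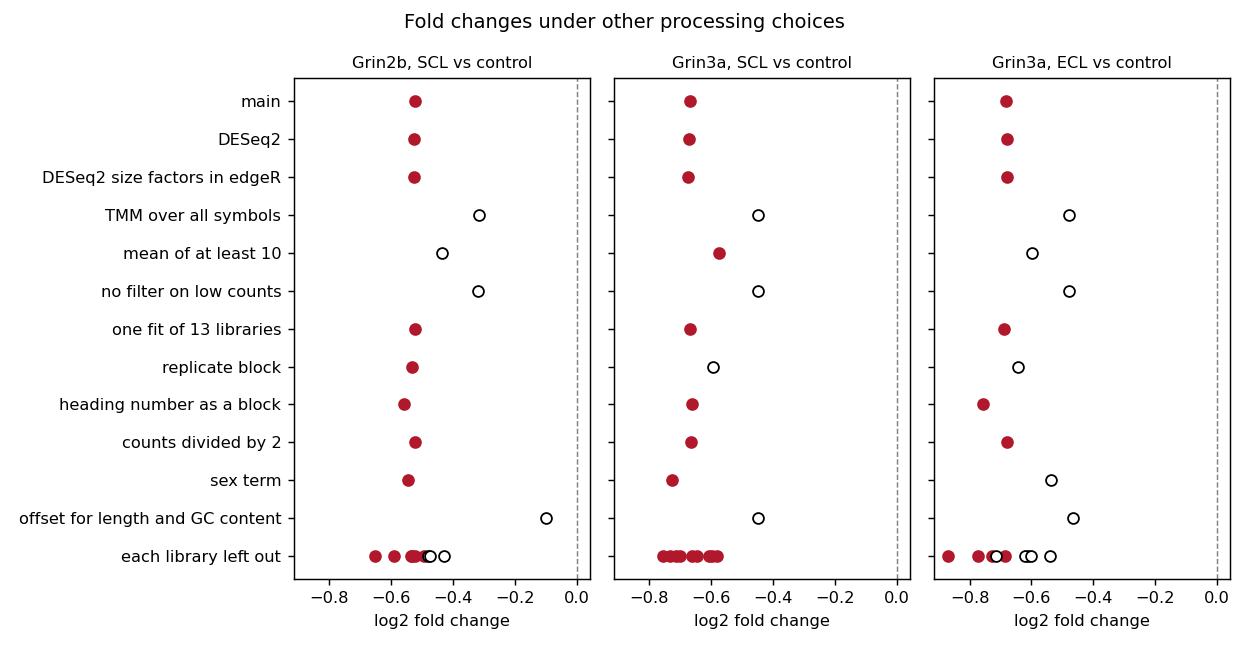
Log2 fold changes of Grin2b after SCL and of Grin3a after SCL and ECL under each processing choice (rows), with 1 point for each left-out library in the last row. Red points passed an adjusted p of 0.05 and open points did not. All points lie below 0, and the scaling over all symbols, the fits without a filter and the offset for length and GC content give the values closest to 0.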

How the data were processed

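The authors trimmed paired-end reads of 150 bases with cutadapt 3.5, mapped them with STAR 2.7.8a to mm10 and counted them with featureCounts 2.0.1 on GENCODE M25 genes, ignoring strand, per the submitters' processing notes and labels. The deposited values are raw counts for 55291 symbols. In every library 63.0% to 74.3% of the values from 1 to 20 were even, an excess that counting each mate of a pair would give, and halved counts were therefore fitted as well. Depth limits Grin2d and Grin3b most, and intervals cover the spread between libraries.

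Separate two-sided quasi-likelihood fits (edgeR 4.0.16, R 4.3.3) set SCL and ECL against the 5 controls and against each other, with TMM factors over the genes tested, a minimum of 150 for the mean normalized count and Benjamini-Hochberg adjustment over all genes tested (threshold 0.05). Members under 150 were tested in fits over genes with a mean of at least 10, and under 10 only counts are given. Printed normalized counts use factors from all 13 libraries. Ratios used counts plus 0.5 and exact permutation tests in SciPy 1.17.1. Lengths, coordinates and GC content came from GENCODE M21, which holds 53292 of the symbols. The fits were tested on simulated data with 200 changed genes: 67% (SCL), 72% (ECL) and 73% (ECL against SCL) of 2-fold changes were called, with 7.26%, 4.44% and 3.35% of calls false. The real comparisons with the controls called 2891 (SCL) and 3139 (ECL) genes, and the subunit changes called were under 2-fold. The simulated rates therefore do not carry over to them.

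All members are named, and some sequences and 1 gene that the rule below would name are not reported here. From each other list at most 2 called genes with the smallest adjusted p-value per comparison are named, all AMPA receptor subunits, and the 3 genes most correlated with each member. The CA1 and dentate marker genes and the overlapping genes are named beyond that rule. Members, lists and tests were chosen with earlier results of these data known. The alternatives were DESeq2 1.42.0, DESeq2 size factors, TMM over all symbols, other minimums, a single fit, the replicate number and, added after seeing the files, the heading number as a block, a sex term, an offset for length and GC content (mgcv 1.9.3) and leaving out each library. No library was left out of the main fits.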

Additional observations from a re-analysis of the deposited data

Results flagged for a closer look

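Of 30 sets of values (a subunit or a ratio in a group of 4 or 5 libraries), 1 held a library far from the rest of its group. Grin2a in SCL replicate 1 stood at 11146 normalized counts, against 6045 to 6574 in the other 3 SCL libraries. Its gap to the nearest library was 0.896 of the whole range of the group, above Dixon's critical value of 0.829 for 4 libraries. Chance alone flags about 1 in 20 such sets.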

How the results depend on the processing

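The count of 2 subunits called after SCL became 0 with TMM over all symbols, without a filter and with the offset for length and GC content, and 1 with a minimum of 10 and with a replicate block. The count of 1 after ECL became 0 with TMM over all symbols, a minimum of 10, a replicate block and a sex term, and 2 with the offset. Without a filter it stayed at 1, but the gene called was Grin1 (0.82, adjusted p = 0.0124, edgeR). Among members under the minimum of 150, the count of 0 after ECL became 1, Grin2c, with DESeq2, a replicate block (−0.92, adjusted p = 0.0400, edgeR) and the offset. The cause was not tested. Leaving out 1 library gave 1 to 2 calls after SCL, 0 to 1 after ECL and 0 to 1 under the minimum after ECL, and the libraries concerned are named above. Values that changed sign did not pass the test: after SCL, Grin2d gave −0.0253 with DESeq2, −0.0251 with its size factors, −0.0175 in a single fit and −0.34 with a replicate block. After ECL, Grin2b gave 0.11 with TMM over all symbols, 0.0103 with a minimum of 10, 0.11 without a filter and 0.28 with the offset, and Grin2d gave −0.0525 with a replicate block. Between ECL and SCL, Grin3a gave 0.13 and Grin2d −0.0879 with a sex term, and Grin2a gave −0.0207 with the offset. Leaving out 1 library, the ranges that crossed 0 were −0.17 to 0.18 (Grin2a after SCL), −0.33 to 0.20 (Grin2d after SCL), −0.17 to 0.10 (Grin2b after ECL), −0.0499 to 0.36 (Grin2d after ECL), and, between ECL and SCL, −0.0618 to 0.29 (Grin2a) and −0.20 to 0.13 (Grin3a). The same held for the ratios of Grin2a to Grin1 after SCL (−0.41 to 0.0345), Grin2a to Grin2b after ECL (−0.0186 to 0.35) and Grin2b to Grin1 between ECL and SCL (−0.11 to 0.14). With the replicate block, Grin3a stood at −0.59 after SCL (adjusted p = 0.0667) and −0.64 after ECL (adjusted p = 0.0776) in edgeR. Libraries with the same replicate number correlated at −0.15 to 0.53 in their deviations from the group means. Libraries with unlike numbers were not compared in this way, so whether the number pairs them is not settled.

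Over all genes, TMM over all symbols moved the share of higher calls after SCL from 52.9% to 80.9%, and that after ECL from 54.9% to 78.0%. Calls numbered 2891 after SCL and 3139 after ECL, and without a filter they numbered 5390 and 8034. With a minimum of 10, 4825 genes were called after ECL, and with the heading number of each column as a block, 1824 after SCL. Leaving out a library gave 1672 to 2828 after SCL, 2094 to 3091 after ECL and 0 to 54 between ECL and SCL.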
